A study of Mus musculus with 12 samples.

Results

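Genes that move, bind and store zinc, iron and copper were followed in the uterus and oviduct of mice given excess estradiol (E2, the main estrogen) during preimplantation pregnancy. The set, chosen by annotated gene symbol with earlier results of these data known, has 44 members of 19938 genes measured. It holds 10 genes of the zinc exporter family Slc30a and 14 of the importer family Slc39a, grouped by symbol alone. The others are 3 metallothioneins, 7 genes of iron uptake, 2 ferritin subunits, 4 genes of iron export and its control, and 4 copper transporters. Each member was read by the probe set with its highest mean over the arrays, among probe sets with a single gene symbol. Slc11a1 had no probe set of that kind and was not analysed here.

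The 4 groups were E2 uterus, oil uterus, E2 oviduct and oil oviduct, with 3 arrays each. E2 mice were injected under the skin with 10 µg/kg E2 in 100 µl of sesame oil on days 0.5, 1.5 and 2.5 after mating, and oil mice had the sesame oil alone (0 µg/kg). The uterine horns and oviducts were flushed on day 3.5 and frozen. Lower doses of E2 belong to the study but were not analysed here, and the labels used here give neither strain nor age. Values are log2 of RMA intensities from Affymetrix arrays, so a difference of 1 log2 unit is a 2-fold change. Levels of different genes are not compared, since each probe set has its own response.

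Zinc leaves the cytosol through Slc30a (ZnT) proteins, which pump it out of the cell or into the Golgi, secretory vesicles and endosomes, and it enters the cytosol through Slc39a (ZIP) proteins. Metallothioneins bind zinc and copper, and their genes are switched on by the zinc sensor Mtf1. Iron circulates on transferrin (Trf), enters cells with the transferrin receptor (Tfrc), is reduced in endosomes by Steap proteins, crosses the membrane through Slc11a2, is stored in ferritin (Fth1, Ftl1) and leaves only through ferroportin (Slc40a1), with the help of the copper ferroxidases ceruloplasmin (Cp) and hephaestin (Heph). Copper enters through Slc31a1 and is pumped by Atp7a and Atp7b. In the female tract these metals are known for their part in secretion, defence against bacteria and the nutrition of the early embryo.

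Median intensities of the arrays lay between 89.5 and 92.9, and within groups Pearson's r across genes, which are not independent replicates, was 0.984 to 0.996. The labelled tissues matched their markers. The 4 Hox genes of the uterus averaged 6.18 to 6.51 on oviductal arrays and 8.91 to 9.85 on uterine arrays, while 6 genes of ciliated cells averaged 8.11 to 9.12 on oviductal arrays and 5.74 to 5.97 on uterine arrays. The arrays of oil replicate 3 stood apart, since 177 uterine and 302 oviductal genes differed there by over 1 log2 unit from the average of their group's remaining arrays, where any other array had 8 to 62 such genes. Among the members only Slc39a8 was displaced by that much in the uterus (1.10 log2 units), and 0 were in the oviduct, where Slc39a8 again lay farthest away (-0.92). Calls that were lost without these arrays are given beside their results. Genes of the Y chromosome, which female tissue lacks, reached 7.50 at most (Sry) and 4.40 without Sry. By that measure 10 members stayed below 7.50 on all arrays and 24 above it, and Hamp stayed below 4.40. Of all 19938 genes, 10257 stayed below 7.50 on all arrays. A group mean below 7.50 leaves the exact size of a fold change uncertain, although the bound rests on Sry alone.

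In the uterus, E2 raised the iron exporter Slc40a1, the ferroxidase Cp, the Steap1 and Steap2 genes, the zinc importer Slc39a2 and transferrin. It lowered Steap4, the metallothioneins Mt1 and Mt2, and 7 zinc transporters. By limma 20 of the 44 members (45.5%) passed an adjusted p of 0.05 (Benjamini-Hochberg over all genes), 10 higher and 10 lower. Over all genes 26.7% passed, 12.4% higher and 14.3% lower, and the median difference was -0.02 log2 units over the members and 0.00 over all genes. Called differences of at least 1 log2 unit numbered 6 upward (2.03% of all genes) and 1 downward (1.41% of all genes). The 3 E2 and 3 oil uterine arrays did not overlap for 22 members, 12 higher and 10 lower, against 40.5% of all genes. The plot of E2 effects by member shows Slc40a1, Steap1, Steap2, Slc39a2, Cp and Slc39a8 at 1 log2 unit or more above 0 in the uterus and Steap4 that far below it.

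**Figure D1:**
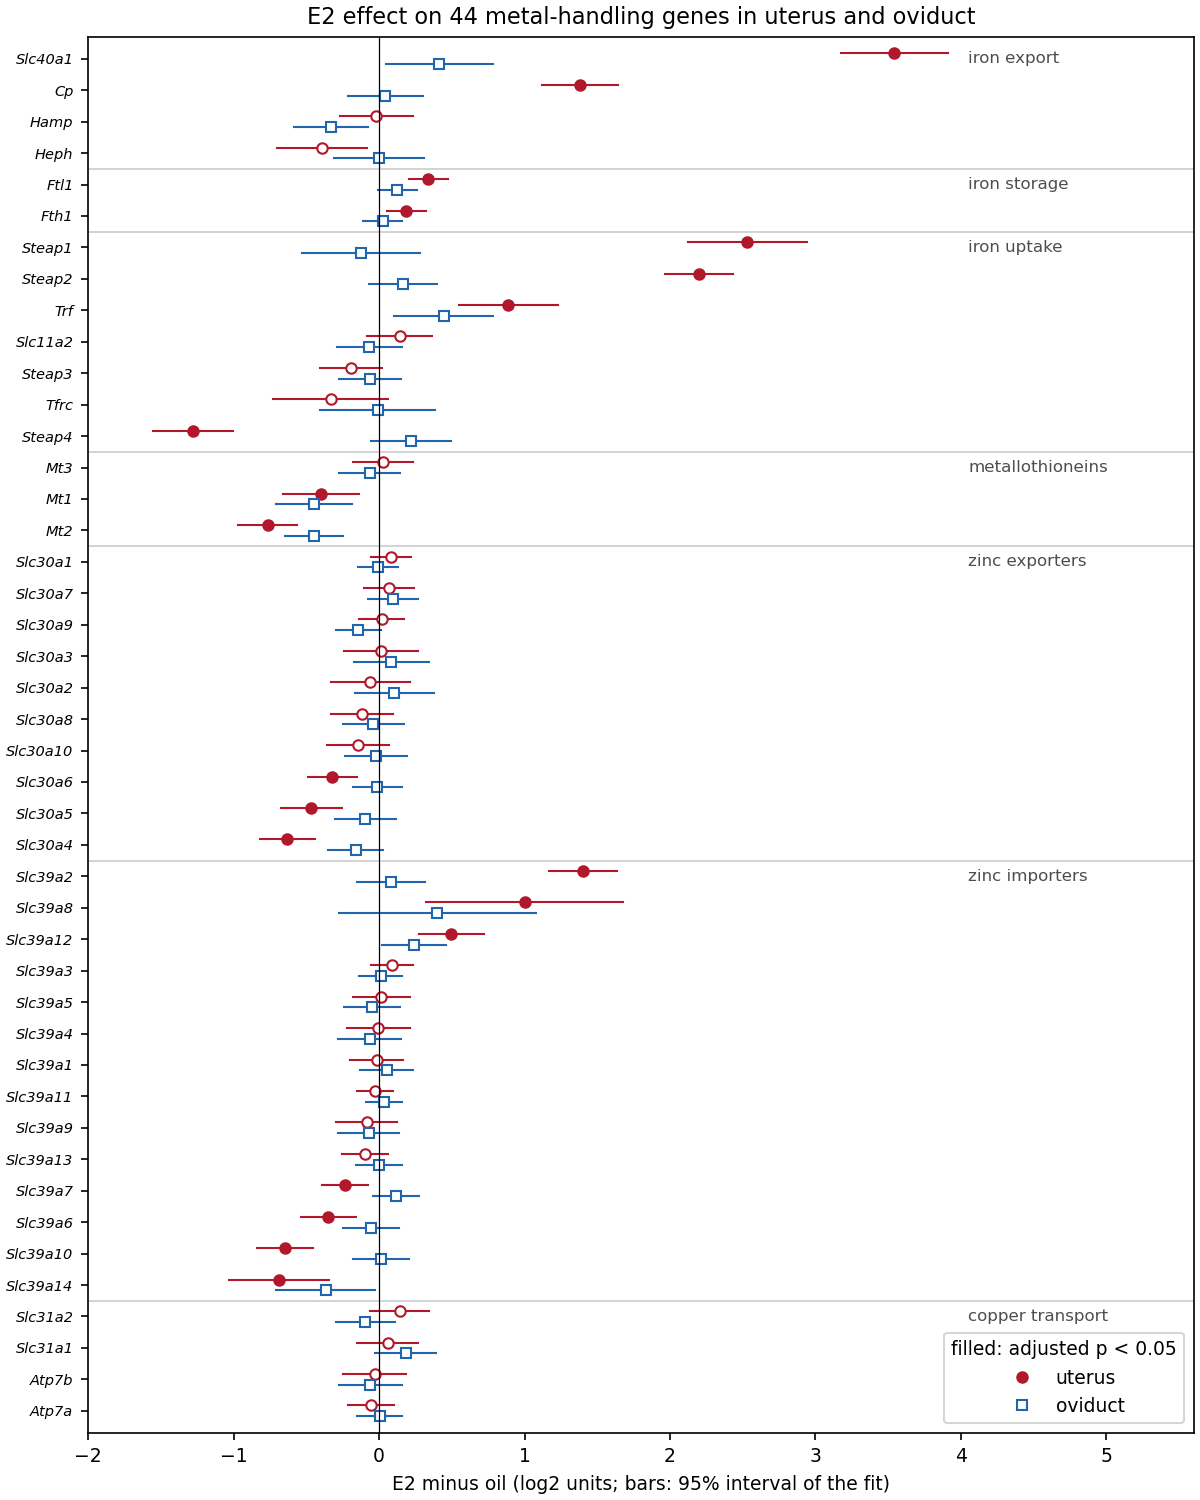
E2 minus oil differences in log2 units for the 44 members, grouped by role, with 95% intervals of the limma fit (red circles, uterus; blue squares, oviduct; filled where adjusted p is below 0.05; n = 3 arrays per group). Slc40a1, Steap1 and Steap2 lie between 2.20 and 3.54 in uterus, Steap4 lies at -1.28, and no oviductal symbol is filled.

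Cell type markers moved in the same tissue, where 26.7% of all genes passed (12.4% higher and 14.3% lower). All 10 epithelial markers rose with E2 in the uterus, with array means of the list at 9.51 to 9.70 in E2 uterus and 8.27 to 8.51 in oil uterus. Macrophage markers rose in 7 of 10 (8.29 to 8.47 in E2 uterus, 7.57 to 7.83 in oil uterus). Neutrophil markers rose in 2 of 8 (5.92 to 6.15 and 5.49 to 5.58), a share of 25% called that is near that of all genes. Those 2 were Ly6g (3.03) and Csf3r (0.57), and the median of the list was 0.09. Endothelial markers fell in 7 of 8 and rose in 1 (8.79 to 8.92 in E2 uterus, 9.23 to 9.41 in oil uterus), stromal ones fell in 3 of 6 (10.67 to 10.72 and 10.93 to 10.98), and smooth muscle ones rose in 2 of 6 (11.59 to 11.64 and 11.04 to 11.57). In the oviduct the epithelial list averaged 9.36 to 9.47 in E2 mice and 9.47 to 9.62 in oil mice. Of its 10 genes 1 fell there. The macrophage list averaged 7.79 to 8.07 in E2 oviduct and 7.14 to 7.70 in oil oviduct, and 0 of its 10 genes passed. Of these 10, 8 had an unadjusted p below 0.05 by limma, against 10.5% of all genes. Their oviductal arrays did not overlap for 7, all higher with E2, against 17.4% of all genes. In the uterus 0 of the epithelial, macrophage, neutrophil and endothelial markers lay below 4.40 on all arrays of a group. The 4 measured erythroid markers did not pass in the uterus (5.57 to 5.94 in E2 uterus, 5.58 to 5.81 in oil uterus). In whole tissue, fewer cells of a type and less RNA per cell cannot be told apart, and the part of these lists in the members' changes was not tested.

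**Figure D2:**
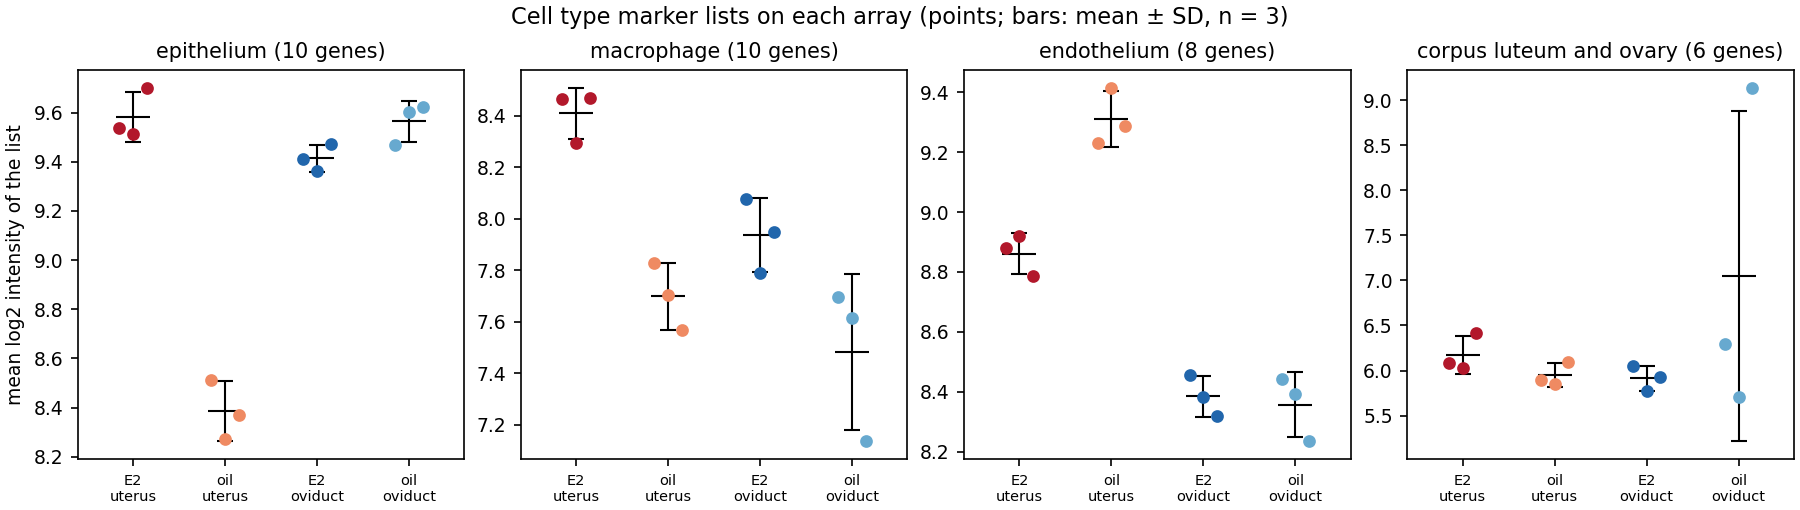
Mean log2 intensity of 4 cell type marker lists on each array (points; bars show the mean ± SD of 3 arrays; each panel has its own axis). The E2 uterus arrays lie above the oil uterus arrays for epithelium and macrophages and below them for endothelium, and 1 oil oviduct array, replicate 3, reads 9.14 for corpus luteum and ovary.

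Iron export gave the largest change of the set. Slc40a1 encodes ferroportin, the exporter through which cells release iron. It read 10.14, 10.05 and 10.37 in the 3 E2 uteri, against 6.78, 6.86 and 6.29 in the 3 oil uteri. All E2 uteri lay over 3 log2 units above all oil uteri, and the difference was 3.54 (standard error, SE, 0.17, adjusted p = 1.45e-07), about 11.6-fold. In oviduct it read 6.73, 6.62 and 7.09 with E2 and 6.34, 6.24 and 6.62 with oil, close to the level of oil uterus. The oviductal arrays did not overlap but the difference of 0.41 (SE 0.17) did not pass (adjusted p = 0.412). The mean of oil uterus, 6.64 ± 0.31 (SD), lies below 7.50, so the fold is uncertain in its exact size.

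Cp encodes ceruloplasmin, a secreted copper enzyme that oxidises the iron released by ferroportin. It read 10.06, 9.97 and 10.15 in E2 uterus, against 8.56, 8.60 and 8.88 in oil uterus, and rose by 1.38 (SE 0.12, adjusted p = 8.49e-06). In oviduct it read 9.05, 9.16 and 9.10 with E2 and 9.08, 8.81 and 9.29 with oil, and these overlapped. Heph, the membrane-bound ferroxidase related to ceruloplasmin, read 7.07, 7.29 and 7.65 in E2 uterus and 7.64, 7.82 and 7.72 in oil uterus. One E2 array reached the oil range, and the difference of -0.39 (SE 0.14) did not pass (adjusted p = 0.063). Without E2 uterus replicate 3 it was -0.55 and passed (adjusted p = 0.00916). In oviduct Heph read 7.04, 6.93 and 6.99 with E2 and 7.25, 6.89 and 6.82 with oil, and the groups overlapped. Hamp, which encodes the liver hormone hepcidin that removes ferroportin from the cell surface, ranged from 3.10 to 3.78 over the 12 arrays, below the level of the Y-linked genes other than Sry.

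The reductases of the Steap family split. Steap proteins sit in the membrane of the cell and of endosomes. Steap2, Steap3 and Steap4 reduce iron and copper there, and Steap1 is best known as an antigen of prostate epithelium. Steap1 read 7.56, 7.43 and 7.96 in E2 uterus, against 5.08, 5.14 and 5.13 in oil uterus, a rise of 2.53 (SE 0.19, adjusted p = 2.62e-06) above a group that was below 7.50. Steap2 read 9.59, 9.48 and 9.67 in E2 uterus, against 7.47, 7.49 and 7.19 in oil uterus, a rise of 2.20 (SE 0.11, adjusted p = 1.61e-07). No E2 uterine array of either gene came near an oil one, and the oil mean of Steap2 was also below 7.50. In oviduct Steap1 read 6.02, 6.28 and 6.33 with E2 and 6.26, 5.97 and 6.79 with oil. Steap2 read 8.22, 8.22 and 8.27 in E2 oviduct and 8.04, 7.89 and 8.27 in oil oviduct. Both genes overlapped between the oviductal groups.

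A second, dimmer probe set annotated to Steap2 went the other way in the uterus. It read 5.72, 5.72 and 5.78 in E2 uterus, against 5.94, 6.29 and 5.83 in oil uterus, a difference of -0.28. The mean of both probe sets gave 0.96 for Steap2, less than the value of the brighter one by over 1.5 times and still past the test. Which probe set stands for the gene was not tested.

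Steap4, a reductase known from fat tissue and inflammation, read 7.77, 7.56 and 8.09 in E2 uterus, against 9.16, 9.15 and 8.95 in oil uterus. It fell by 1.28 log2 units (SE 0.13, adjusted p = 2.31e-05), the largest fall among the members in the uterus. In oviduct it read 8.03, 8.18 and 8.23 with E2 and 8.013, 8.003 and 7.768 with oil, slightly apart, with a difference of 0.22 that did not pass (adjusted p = 0.589). Steap3, the endosomal reductase of red cell precursors, read 8.69, 8.83 and 8.62 in E2 uterus and 8.82, 8.96 and 8.94 in oil uterus (-0.19, adjusted p = 0.177), and 7.84, 8.01 and 7.83 in E2 oviduct and 8.10, 7.76 and 7.99 in oil oviduct. Steap3 did not pass in either tissue. In the mouse gene order Steap2 and Steap1 are neighbours on chromosome 5, and 3 protein-coding genes separate Steap1 from Steap4.

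**Figure D3:**
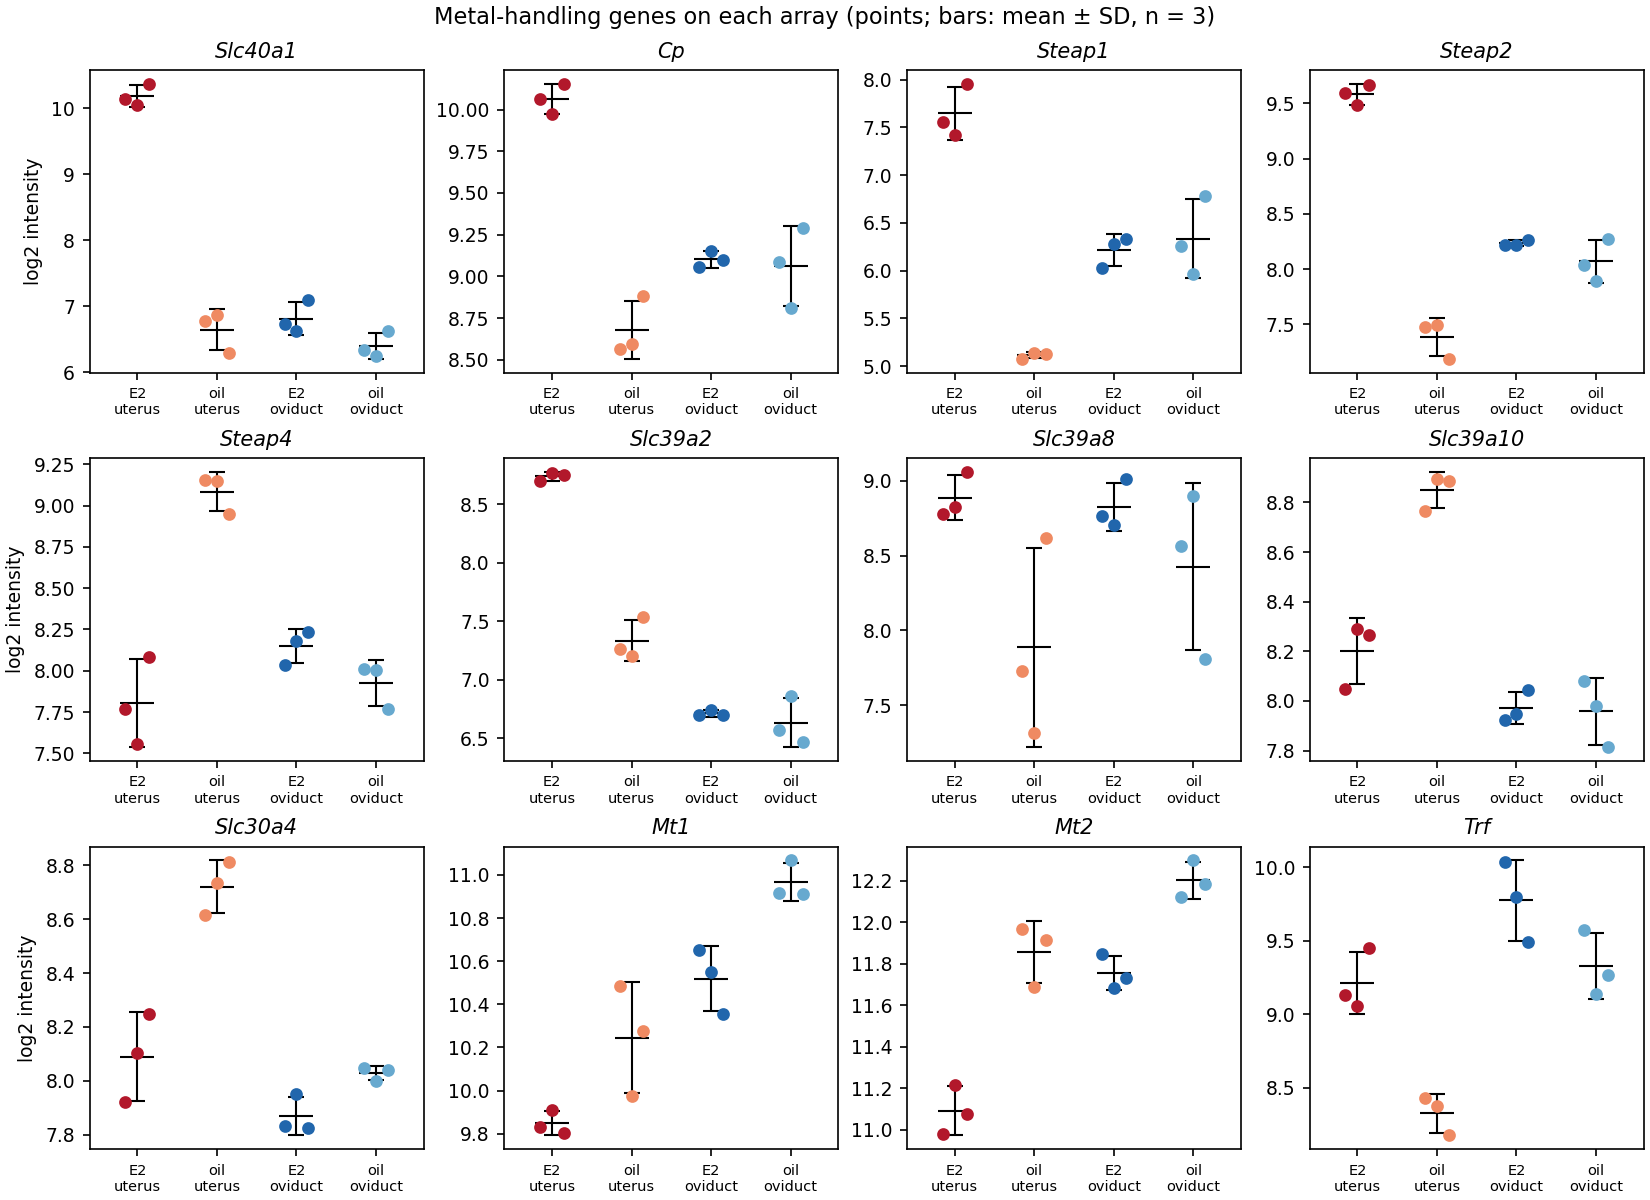
Log2 intensity of 12 members on each array (points; bars show the mean ± SD of 3 arrays; each panel has its own axis, which does not start at 0). Slc40a1, Cp, Steap1, Steap2 and Slc39a2 stand highest in E2 uterus, while Steap4, Slc39a10 and Slc30a4 stand highest in oil uterus and Mt1 and Mt2 in oil oviduct.

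Transferrin rose in the uterus, while its receptor did not pass the test. Trf, the iron carrier of blood and of reproductive tract fluids, read 9.13, 9.06 and 9.45 in E2 uterus, against 8.43, 8.37 and 8.18 in oil uterus. It rose by 0.89 (SE 0.16, adjusted p = 0.00125), and the groups did not overlap. In oviduct Trf read 10.04, 9.80 and 9.49 with E2 and 9.58, 9.14 and 9.27 with oil, overlapping, with a difference of 0.45 (SE 0.16, adjusted p = 0.329). Tfrc, the receptor that takes up transferrin, read 6.80, 6.69 and 7.19 in E2 uterus and 6.98, 7.02 and 7.68 in oil uterus. Oil replicate 3 was the highest uterine array, and the difference of -0.33 (95% interval -0.73 to 0.06) did not pass (adjusted p = 0.218). With array weights it was -0.34 and passed (adjusted p = 0.0439). In oviduct Tfrc read 6.40, 6.54 and 6.71 with E2 and 6.47, 6.60 and 6.61 with oil. Slc11a2, the iron transporter DMT1 of endosomes and gut, read 7.65, 7.56 and 7.86 in E2 uterus and 7.50, 7.42 and 7.72 in oil uterus (0.14, adjusted p = 0.373), and 7.35, 7.35 and 7.26 in E2 oviduct and 7.37, 7.28 and 7.52 in oil oviduct. Its arrays overlapped in both tissues.

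The ferritin subunits store iron inside cells, and their protein is known to be set mainly by iron regulatory proteins on the mRNA. Ftl1, the light chain, read 11.20, 11.11 and 11.11 in E2 uterus, against 10.85, 10.82 and 10.72 in oil uterus, a rise of 0.34 (SE 0.06, adjusted p = 0.00167). Fth1, the heavy chain with ferroxidase activity, read 11.94, 11.91 and 11.91 in E2 uterus, against 11.71, 11.66 and 11.84 in oil uterus, a rise of 0.19 (SE 0.06, adjusted p = 0.0418). The Fth1 groups did not overlap, yet the call was lost under 14 of 21 other settings. Leaving out any single array other than oil uterus or oil oviduct replicate 3 ended it, with differences of 0.15 to 0.19 and adjusted p 0.0512 to 0.147. In oviduct Ftl1 read 11.07, 11.00 and 10.98 with E2 and 10.91, 10.86 and 10.90 with oil. Fth1 read 12.06, 12.07 and 12.03 in E2 oviduct and 12.02, 12.00 and 12.07 in oil oviduct. Neither passed there. Both ferritin genes have near-identical copies in the genome, so how far these probe sets read the named genes alone is uncertain.

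Of the 3 metallothioneins Mt1 and Mt2 fell with E2 in the uterus. Mt2 read 10.98, 11.22 and 11.08 in E2 uterus, against 11.97, 11.69 and 11.91 in oil uterus. It fell by 0.77 log2 units (SE 0.09, adjusted p = 9.67e-05), with all E2 arrays below all oil arrays. Mt1 read 9.83, 9.91 and 9.80 in E2 uterus, against 10.49, 9.98 and 10.28 in oil uterus, and fell by 0.40 (SE 0.12, adjusted p = 0.0272). That call rests on few arrays, since without oil uterus replicate 1 the difference was -0.28 (adjusted p = 0.109), without oil uterus replicate 3 -0.38 (0.0704), without both arrays of oil replicate 3 -0.38 (0.0686), and without an E2 uterine array -0.43 to -0.37 (0.0503 to 0.0769). In oviduct Mt2 read 11.85, 11.69 and 11.73 with E2 and 12.12, 12.30 and 12.19 with oil, again without overlap, and the difference of -0.45 (SE 0.09) did not pass (adjusted p = 0.0922). It passed when dim genes were left out, with an intensity trend and with array weights, at adjusted p 0.0325 to 0.0492. Mt1 read 10.65, 10.55 and 10.35 in E2 oviduct and 10.92, 11.07 and 10.91 in oil oviduct, also apart, with a difference of -0.45 (adjusted p = 0.195).

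Mt3, the metallothionein of brain, read 7.73, 7.39 and 7.58 in E2 uterus and 7.63, 7.52 and 7.47 in oil uterus, and 8.07, 7.97 and 8.06 in E2 oviduct and 7.95, 8.14 and 8.21 in oil oviduct. Its arrays overlapped between treatments in both tissues. The transcription factor Mtf1, which is not a member, read 7.64, 7.81 and 7.65 in E2 uterus and 7.76, 7.63 and 7.83 in oil uterus (-0.04, adjusted p = 0.849). Mt3, Mt2 and Mt1 are direct neighbours on chromosome 8.

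Metal response elements, the short sites that Mtf1 binds, were looked up in the promoters, since Mt1 and Mt2 were lower together. Windows from 250 bases before to 50 bases after an annotated transcript start were taken from RefSeq (GRCm38.p6), and 36 of 44 members had 49 windows. Slc40a1, Trf, Heph, Slc11a2, Slc30a8, Slc39a4, Slc39a6 and Slc39a14 had no window, so their promoters were not searched. The letters searched were the core TGCACNC or TGCGCNC on both strands. At least 1 match stood in 21 of the 49 member windows and in 25.7% of all 32851 windows. At least 2 stood in 8 member windows and 7.11% of all windows, at least 3 in 1.97% of all windows and at least 4 in 0.517%. Mt2 had 4 matches, while Mt1, Slc30a4 and Slc30a10 had 3 and Slc30a1, Slc30a2, Tfrc and Atp7a had 2. The 4 windows printed are those of the fallen metallothioneins, of the fallen exporter with 3 matches, and of Slc30a1, known as a zinc-induced exporter. The letters are 5′ to 3′ on the strand of the gene, and capitals mark the matches. The Mt2 window is chr8:94172368-94172667 (+), that of Mt1 chr8:94178839-94179138 (+), that of Slc30a4 chr2:122702614-122702913 (-) and that of Slc30a1 chr1:191906531-191906830 (+).
Mt2: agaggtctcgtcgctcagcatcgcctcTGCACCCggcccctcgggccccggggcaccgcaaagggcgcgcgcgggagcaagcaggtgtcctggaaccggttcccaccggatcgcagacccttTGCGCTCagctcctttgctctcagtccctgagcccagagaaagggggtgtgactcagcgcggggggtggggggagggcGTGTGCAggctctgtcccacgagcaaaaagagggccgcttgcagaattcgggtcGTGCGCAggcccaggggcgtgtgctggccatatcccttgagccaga
Mt1: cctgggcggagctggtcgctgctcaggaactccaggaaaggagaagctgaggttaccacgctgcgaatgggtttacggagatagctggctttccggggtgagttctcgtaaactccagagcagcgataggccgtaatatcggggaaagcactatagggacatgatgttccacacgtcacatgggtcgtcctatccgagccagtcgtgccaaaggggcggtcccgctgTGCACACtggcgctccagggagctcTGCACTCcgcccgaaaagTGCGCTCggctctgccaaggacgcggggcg
Slc30a4: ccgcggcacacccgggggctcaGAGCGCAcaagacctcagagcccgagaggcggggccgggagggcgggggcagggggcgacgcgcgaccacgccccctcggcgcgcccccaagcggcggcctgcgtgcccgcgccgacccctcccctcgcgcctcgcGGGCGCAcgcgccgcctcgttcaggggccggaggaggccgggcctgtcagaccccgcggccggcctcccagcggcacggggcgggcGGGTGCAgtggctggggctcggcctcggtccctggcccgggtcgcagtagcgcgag
Slc30a1: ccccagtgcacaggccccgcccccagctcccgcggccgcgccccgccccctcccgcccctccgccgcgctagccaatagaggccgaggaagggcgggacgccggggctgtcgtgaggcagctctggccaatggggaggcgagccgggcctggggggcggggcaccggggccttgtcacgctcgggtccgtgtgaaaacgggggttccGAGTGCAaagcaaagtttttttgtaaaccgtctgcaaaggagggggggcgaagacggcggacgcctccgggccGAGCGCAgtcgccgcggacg
The start that the window is built on lies inside the outer coordinates of the gene for Mt1 and Slc30a1. The Mt1 matches lie close together near the 3′ end of the window, while those of Mt2 and Slc30a4 are spread over the window. The full estrogen response element, which is 2 facing copies of GGTCA set 3 bases apart, stood in 0 of the 49 member windows and in 0.07% of all windows. At so low a share, 49 windows are too few to tell whether members lack the element, and they do not cover Slc40a1 or Trf. A single GGTCA stood in 19 of 49 member windows and 40.5% of all windows. A match says that the letters are there, and no binding was measured.

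Of 10 genes of the zinc exporter family Slc30a, 3 fell in the uterus and 0 rose. That share of 30% called is near the 26.7% of all genes. Slc30a4, which loads zinc into vesicles and is known for zinc in mouse milk, read 7.92, 8.10 and 8.25 in E2 uterus, against 8.62, 8.73 and 8.81 in oil uterus. It fell by 0.63 log2 units (SE 0.09, adjusted p = 0.00024), with no overlap. Slc30a5 and Slc30a6 form a pair that brings zinc into the early secretory pathway for enzymes such as alkaline phosphatase. Slc30a5 read 8.58, 8.76 and 8.91 in E2 uterus, against 9.08, 9.22 and 9.35 in oil uterus, and fell by 0.47 (SE 0.10, adjusted p = 0.00345). Slc30a6 read 7.75, 7.92 and 8.02 in E2 uterus, against 8.18, 8.24 and 8.23 in oil uterus, and fell by 0.32 (SE 0.08, adjusted p = 0.00871). All 3 genes were lower on every E2 array than on any oil array.

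In oviduct 0 of these exporters passed. Slc30a4 read 7.83, 7.95 and 7.83 in E2 oviduct and 8.048, 7.998 and 8.042 in oil oviduct, Slc30a5 9.00, 9.16 and 9.11 and 9.20, 9.11 and 9.24, and Slc30a6 8.07, 7.94 and 8.10 and 8.05, 7.99 and 8.10. The differences were -0.16, -0.09 and -0.01, and the groups lay apart for Slc30a4 alone. Slc30a1, the exporter of the cell membrane, read 7.40, 7.50 and 7.40 in E2 uterus and 7.35, 7.32 and 7.38 in oil uterus. Those groups did not overlap but differed by only 0.08 (95% interval -0.05 to 0.22, adjusted p = 0.402). With array weights the difference was 0.13 and passed (adjusted p = 0.0461). In oviduct Slc30a1 read 7.44, 7.39 and 7.31 with E2 and 7.36, 7.45 and 7.35 with oil. The other 6 exporters (Slc30a2, Slc30a3, Slc30a7, Slc30a8, Slc30a9 and Slc30a10) gave uterine differences of -0.14 to 0.07 and did not pass. With array weights Slc30a10 gave -0.20 and passed (adjusted p = 0.0406). Slc30a8 is the zinc transporter of insulin granules and stayed at 4.55 to 4.96 on all arrays.

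Zinc importers went both ways in the uterus, 3 of 14 higher and 4 lower, 50% called in all against 26.7% of all genes (12.4% higher and 14.3% lower). Slc39a2, an importer of the cell membrane known from skin and immune cells, read 8.70, 8.77 and 8.75 in E2 uterus, against 7.26, 7.21 and 7.53 in oil uterus. It rose by 1.40 (SE 0.11, adjusted p = 3.36e-06) from an oil mean below 7.50. In oviduct Slc39a2 read 6.69, 6.74 and 6.70 with E2 and 6.57, 6.86 and 6.46 with oil, below all uterine arrays. Slc39a8, which carries zinc, manganese and iron, read 8.78, 8.83 and 9.06 in E2 uterus, against 7.73, 7.31 and 8.62 in oil uterus. Its oil arrays were spread over more than 1 log2 unit, with replicate 3 near the E2 range, and it rose by 1.00 (SE 0.31, adjusted p = 0.032). Without both arrays of oil replicate 3 the rise was 1.37 (adjusted p = 0.000115). The call was lost without oil uterus replicate 1 (0.92, adjusted p = 0.096), without oil uterus replicate 2 (0.72, adjusted p = 0.126) and without any E2 uterine array (0.92 to 1.06, adjusted p 0.0643 to 0.095). In oviduct Slc39a8 read 8.76, 8.71 and 9.01 with E2 and 8.56, 8.90 and 7.81 with oil, and the groups overlapped. Slc39a12, a zinc importer of brain, read 5.75, 5.74 and 5.75 in E2 uterus, against 5.28, 5.28 and 5.19 in oil uterus, a rise of 0.50 (adjusted p = 0.00351) with both groups below 7.50. It read 5.37, 5.29 and 5.73 in E2 oviduct and 5.12, 5.31 and 5.25 in oil oviduct.

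Among the importers that fell, Slc39a14 carries zinc, manganese and non-transferrin iron and is known to rise in inflammation. It read 7.77, 7.93 and 7.83 in E2 uterus, against 8.49, 8.25 and 8.84 in oil uterus, and fell by 0.69 (SE 0.16, adjusted p = 0.00639). In oviduct Slc39a14 read 8.47, 8.52 and 8.60 with E2 and 8.59, 8.93 and 9.18 with oil, with a difference of -0.37 that did not pass (adjusted p = 0.439). Slc39a6 and Slc39a10 are close relatives that act together at the cell membrane, and SLC39A6 is a classic estrogen-induced gene in human breast cancer cells. Here both were lower with E2. Slc39a10 read 8.05, 8.29 and 8.27 in E2 uterus, against 8.77, 8.90 and 8.89 in oil uterus, and fell by 0.65 (SE 0.09, adjusted p = 0.00023). Slc39a6 read 7.58, 7.58 and 7.85 in E2 uterus, against 7.95, 7.94 and 8.16 in oil uterus, and fell by 0.35 (SE 0.09, adjusted p = 0.0112), a call that missed the threshold without E2 uterus replicate 2 (-0.30, adjusted p = 0.0521).

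In oviduct Slc39a10 read 7.92, 7.95 and 8.04 with E2 and 8.08, 7.98 and 7.81 with oil. Slc39a6 read 7.55, 7.54 and 7.49 in E2 oviduct and 7.64, 7.58 and 7.53 in oil oviduct. Both overlapped between treatments there. In the gene order of chromosome 1, 2 protein-coding genes lie between Slc40a1 and Slc39a10, which moved in opposite directions in the uterus. Slc39a7 releases zinc from the endoplasmic reticulum and the Golgi. It read 8.06, 8.07 and 8.11 in E2 uterus, against 8.38, 8.19 and 8.38 in oil uterus, and 8.30, 8.28 and 8.34 in E2 oviduct and 8.25, 8.23 and 8.09 in oil oviduct. Its uterine fall of 0.23 log2 units (adjusted p = 0.0295) was lost without oil uterus replicate 1 (-0.20, adjusted p = 0.105), oil uterus replicate 3 (-0.20, 0.0949), both arrays of oil replicate 3 (-0.20, 0.0591), E2 uterus replicate 1 (-0.23, 0.0798) or E2 uterus replicate 2 (-0.23, 0.085). Slc39a4, the importer of dietary zinc in the gut, read 10.43, 10.42 and 10.26 in E2 uterus and 10.26, 10.28 and 10.59 in oil uterus, and 10.01, 9.93 and 10.13 in E2 oviduct and 10.02, 10.19 and 10.05 in oil oviduct, overlapping in both tissues. The other 6 importers (Slc39a1, Slc39a3, Slc39a5, Slc39a9, Slc39a11 and Slc39a13) differed by -0.09 to 0.09 in the uterus and did not pass. For Slc39a1 a second probe set gave -0.01, the same as the one used (-0.02) within rounding, and a pseudogene of Slc39a1 may share its sequence.

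None of the 4 copper transporters passed in the uterus. There 0 of them reached an unadjusted p of 0.05, while 7193 of 19938 genes did. With array weights Slc31a2 passed in the uterus (0.21, adjusted p = 0.0162). Slc31a1, the copper importer CTR1, read 8.46, 8.45 and 8.53 in E2 uterus and 8.37, 8.28 and 8.60 in oil uterus (0.06, 95% interval -0.15 to 0.27), and 9.13, 9.13 and 9.24 in E2 oviduct and 8.87, 8.91 and 9.15 in oil oviduct. Slc31a2, a related protein of endosomes, read 9.59, 9.81 and 9.81 in E2 uterus and 9.58, 9.60 and 9.60 in oil uterus (0.14, 95% interval -0.06 to 0.35), and 10.79, 10.82 and 10.76 in E2 oviduct and 10.93, 11.05 and 10.68 in oil oviduct. Slc31a1 and Slc31a2 both lay higher in oviduct than in uterus whichever treatment was given. Only 1 protein-coding gene lies between them on chromosome 4. Atp7a, the copper pump that supplies secreted enzymes, read 8.76, 8.83 and 8.88 in E2 uterus and 8.80, 8.96 and 8.88 in oil uterus (-0.05, 95% interval -0.21 to 0.10), and 8.73, 8.80 and 8.80 in E2 oviduct and 8.82, 8.84 and 8.66 in oil oviduct. Atp7b, the pump of liver that loads ceruloplasmin with copper, read 5.50, 5.39 and 5.41 in E2 uterus and 5.57, 5.32 and 5.49 in oil uterus (-0.03, 95% interval -0.24 to 0.19), and 5.43, 5.04 and 5.30 in E2 oviduct and 5.32, 5.37 and 5.25 in oil oviduct. The intervals of the 4 genes leave room for changes of up to 0.35 log2 units.

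In the oviduct 0 of 44 members passed limma's test at an adjusted p of 0.05, where 0.291% of all genes passed. Under 3 other settings, given above, 1 member (Mt2) was called. An unadjusted p below 0.05 was found for 7 members (10.5% of all genes had one): Hamp, Mt1, Mt2, Slc39a12, Slc39a14, Slc40a1 and Trf. The arrays of the E2 and oil oviducts did not overlap for 8 members, 4 higher and 4 lower, against 17.4% of all genes. Those higher with E2 were Ftl1, Slc39a7, Slc40a1 and Steap4, and those lower were Mt1, Mt2, Slc30a4 and Slc30a9. Differences ranged from -0.45 to 0.45, with a median of 0.00 over the members and -0.01 over all genes. The oil oviduct array of replicate 3 read 9.14 for the 6 markers of corpus luteum and ovary, while the other oviductal arrays read 5.71 to 6.30. Without both arrays of oil replicate 3, 0 members passed in the oviduct.

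Whether the E2 effect differed between the tissues was tested as the oviductal effect minus the uterine effect. It passed for 9 of 44 members (20.5%), against 11.5% of all genes. Of the 9, 4 were higher (5.77% of all genes) and 5 lower (5.71% of all genes). For Slc40a1 the difference of effects was -3.13 (SE 0.24, adjusted p = 1.67e-05), from an effect of 0.41 in oviduct and 3.54 in uterus. Steap1 gave -2.66 (SE 0.26, adjusted p = 8.08e-05), with -0.12 in oviduct and 2.53 in uterus. Steap2 gave -2.03, Cp -1.34 and Slc39a2 -1.33. For these 5 genes the uterine effect was upward and the larger one. For Steap2 that holds for the brighter probe set, since the dimmer one gave -0.17 in oviduct and -0.28 in uterus, and the mean of both probe sets gave a difference of effects of -0.96. Of the genes with a positive difference, Steap4 gave 1.502 (SE 0.18, adjusted p = 0.000278), with 0.22 in oviduct and -1.28 in uterus, and Slc39a10 gave 0.66 (SE 0.12, adjusted p = 0.00551). Slc30a4 (0.47, adjusted p = 0.0286) and Slc39a7 (0.35, adjusted p = 0.0437) passed too, but these calls were lost under 10 and 14 of 20 other settings. The Slc30a4 call was lost without any single array other than oil uterus replicate 1, E2 uterus replicate 3 and oil oviduct replicate 3 (0.39 to 0.49), and without both arrays of oil replicate 3 (0.43, adjusted p = 0.0646). The Slc39a7 call was lost without any single array other than oil uterus replicate 2 (0.30 to 0.38), without both arrays of oil replicate 3 (0.27, adjusted p = 0.113), with quantile normalization (0.34, adjusted p = 0.0637) and in the fit with a replicate block. For the metallothioneins the difference of effects did not pass, with -0.05 for Mt1 (95% interval -0.42 to 0.32) and 0.32 for Mt2 (95% interval 0.03 to 0.60), so their falls were not shown to differ between the tissues. The same holds for Trf (-0.44, 95% interval -0.92 to 0.04).

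The tissues themselves differed in the RNA levels of many members. In oil mice 23 of 44 members passed (52.3%, against 38.7% of all genes), 11 higher and 12 lower in oviduct than in uterus. In E2 mice 21 passed (47.7%, against 34.1% of all genes), 10 higher and 11 lower. Arrays of oviduct and uterus did not overlap for 12 members higher and 16 lower in E2 mice (49.8% of all genes did not overlap), and for 11 higher and 13 lower in oil mice (46.6% of all genes). The comparisons use separate arrays but the same estimate of the spread, and 15 members passed in both, 12 with the same sign. The share of all genes that passed in both was not counted, so these counts cannot be set against it. Of 10 epithelial markers, 1 was higher and 3 lower in oviduct in E2 mice, and 9 were higher in oil mice. Endothelial markers were lower in oviduct in 6 of 8 in E2 mice and 7 of 8 in oil mice, and macrophage markers in 6 and 2 of 10. Stromal markers were lower in 4 of 6 and higher in 1 in E2 mice, and lower in 5 in oil mice. Neutrophil markers were lower in 4 of 8 in E2 mice, and in oil mice lower in 3 and higher in 1. Smooth muscle markers were lower in 4 of 6 in E2 mice and 0 in oil mice, and all 6 ciliated cell markers were higher in both. The part of these lists in the results was not tested. Slc31a1, Slc31a2, the metallothioneins and transferrin were higher in oviduct with both treatments. Slc31a2 lay higher by 1.05 in E2 mice (SE 0.09, adjusted p = 5.46e-06) and 1.29 in oil mice, and Slc31a1 by 0.69 and 0.56. Mt1 lay higher by 0.67 in E2 mice and 0.72 in oil mice, Mt2 by 0.66 and 0.35, and Mt3 by 0.47 and 0.56. Trf lay higher by 0.56 in E2 mice (adjusted p = 0.0151) and 1.00 in oil mice (adjusted p = 0.000289). The importer Slc39a9 of the secretory pathway was also higher in both, by 0.33 and 0.31.

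Lower in oviduct in both treatments were Steap3, Slc39a2, Slc39a1, Slc39a4 and Slc30a7. Steap3 differed by -0.82 in E2 mice (SE 0.10, adjusted p = 4.94e-05) and -0.96 in oil mice. Slc39a2 differed by -2.03 in E2 mice and -0.70 in oil mice. Slc39a1 differed by -0.25 and -0.32, Slc39a4 by -0.35 and -0.29, and Slc30a7, an exporter of the Golgi, by -0.25 and -0.28. Without both arrays of oil replicate 3 the oil comparison was lost for Slc30a7 (-0.19, adjusted p = 0.117), Slc39a4 (-0.17, adjusted p = 0.216), Slc39a9 (0.21, adjusted p = 0.0844) and Slc39a13 (-0.22, adjusted p = 0.0776).

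Cp, Steap1 and Steap2 changed sides between the treatments. As oviduct minus uterus, Cp gave -0.96 in E2 mice (adjusted p = 7.07e-05) and 0.38 in oil mice (adjusted p = 0.0236), where the arrays overlapped. Steap1 gave -1.43 in E2 mice and 1.22 in oil mice, and Steap2 -1.35 and 0.68, with no overlap in either. For Steap2 the dimmer probe set gave -0.84 in E2 mice and -0.94 in oil mice. Slc40a1 lay -3.37 log2 units from uterus in E2 mice (SE 0.17, adjusted p = 6.53e-08) and -0.25 in oil mice, which did not pass (adjusted p = 0.291). Other members that passed in E2 mice but not in oil mice were Hamp and Slc11a2, lower in oviduct, and Slc30a5, Slc39a14 and Slc39a7, higher in oviduct. Hamp stayed on all arrays below 4.40, the highest level of the Y-linked genes without Sry, and its arrays overlapped. In oil mice but not in E2 mice, 8 passed: Fth1 higher in oviduct, and Heph, Slc30a4, Slc39a6, Slc39a10, Slc39a13, Steap4 and Tfrc lower. The difference between treatments was itself past the test for Slc40a1, Slc39a7, Slc30a4, Slc39a10 and Steap4 among these genes.

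Several of these tissue calls rested on single arrays. In E2 mice Trf missed the threshold without E2 uterus replicate 1 or 2 or E2 oviduct replicate 1 (0.43 to 0.52, adjusted p 0.0518 to 0.0679). Slc39a9 missed it without E2 uterus replicate 1 or 2 or E2 oviduct replicate 1 or 2 (0.28 to 0.33, 0.053 to 0.0722), and Slc39a7 without any E2 array other than E2 uterus replicate 3 (0.21 to 0.24, 0.0573 to 0.0922). Slc30a5 missed it without E2 uterus replicate 1 or E2 oviduct replicate 2 or 3 (0.25 to 0.33, 0.0523 to 0.0682), and Slc11a2 without replicate 3 of E2 uterus or of E2 oviduct (-0.34 to -0.28, 0.0557 to 0.0619). Slc30a7 and Slc39a1 missed it without replicate 2 or 3 of either E2 group (-0.25 to -0.20 and -0.24 to -0.21, 0.0697 to 0.121), and Slc39a4 without E2 uterus replicate 1 or 2 or E2 oviduct replicate 2 (-0.32 to -0.31, 0.0512 to 0.0632). Hamp missed it without E2 uterus replicate 2 or 3 or E2 oviduct replicate 1 or 2 (-0.33 to -0.24, 0.0952 to 0.158). In oil mice Cp missed it without oil uterus replicate 1 or 2 or oil oviduct replicate 1 or 3 (0.27 to 0.37, 0.0623 to 0.0897). Slc39a4 missed it without oil uterus replicate 3 or oil oviduct replicate 1 or 3 (-0.27 to -0.18, 0.0804 to 0.13), Slc39a9 without oil uterus replicate 2 or oil oviduct replicate 3 (0.20 to 0.28, 0.0656 to 0.0718), Slc39a13 without oil uterus replicate 1 or 3 (-0.23 to -0.22, 0.0519 to 0.0565) and Slc30a7 without oil uterus replicate 3 (-0.23, 0.0501).

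**Figure D4:**
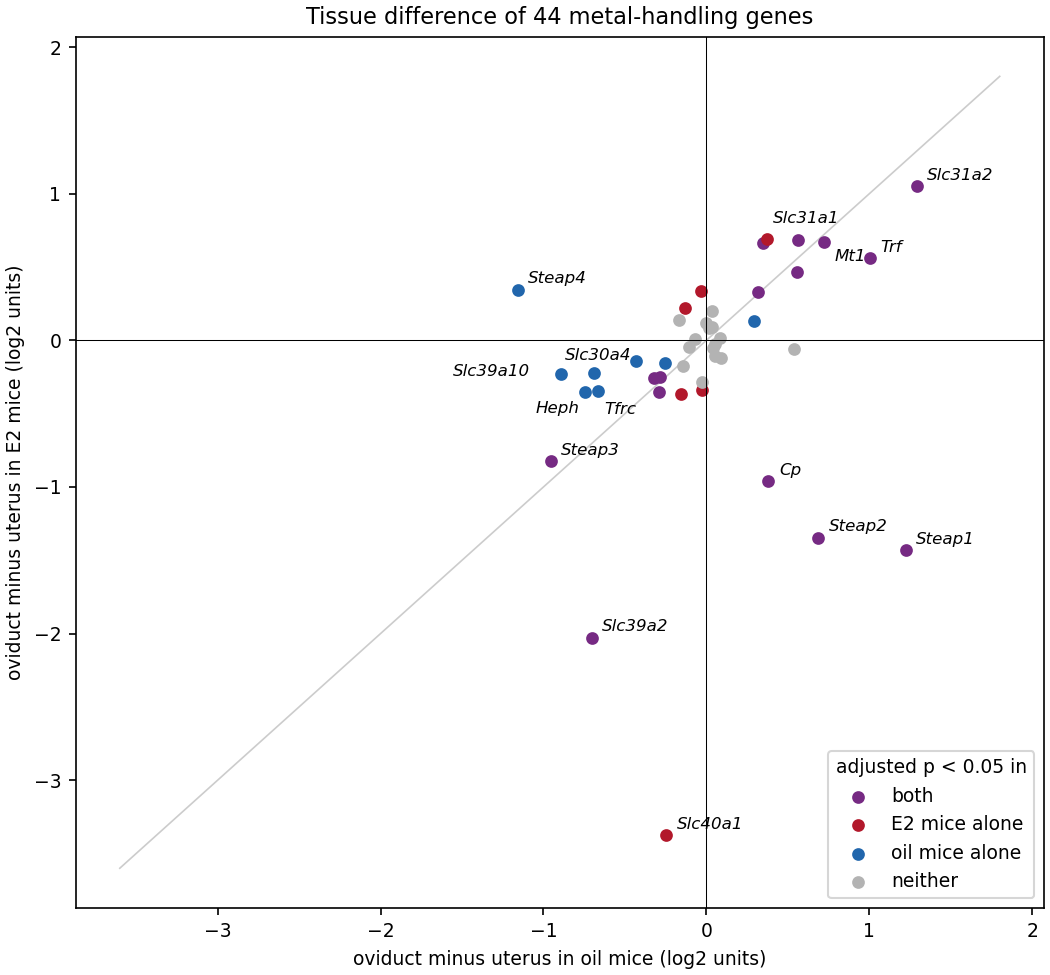
Oviduct minus uterus in log2 units for the 44 members, in oil mice (horizontal axis) and in E2 mice (vertical axis), coloured by where the adjusted p is below 0.05, with a line of equal difference. Slc31a2, Slc31a1, Mt1 and Trf are higher in oviduct in both, Cp, Steap1 and Steap2 lie right of and below 0, and Slc40a1 reads -3.37 in E2 mice and -0.25 in oil mice.

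Other genes of the same pathways were counted from 3 lists outside the rule, also chosen with earlier results known, with 78 genes measured. In the uterus 17 rose and 12 fell (37.2%, beside 26.7% of all genes). In the oviduct 0 passed (0.291% of all genes did), and 8 of 78 had an unadjusted p below 0.05, near the 10.5% of all genes. Of 42 further iron genes 7 rose and 9 fell in the uterus, 38.1% against 26.7% of all genes. Ltf, the iron-binding lactoferrin of mucosal fluids, read 12.12, 11.99 and 12.05 in E2 uterus, against 6.76, 6.73 and 6.31 in oil uterus (5.45, SE 0.19, adjusted p = 2.72e-08). In oviduct Ltf read 10.88, 10.99 and 10.98 with E2 and 10.38, 10.54 and 11.27 with oil. Lcn2, which binds the iron-carrying siderophores of bacteria, read 12.60, 12.37 and 12.61 in E2 uterus, against 7.24, 7.04 and 7.87 in oil uterus (5.14, SE 0.21), and 11.57, 11.60 and 11.83 in E2 oviduct and 10.53, 10.42 and 11.14 in oil oviduct. For both genes the E2 uterus arrays read above the oviductal ones and the oil uterus arrays far below them. Hp, the haptoglobin that binds free haemoglobin, rose by 0.82, and Flvcr2, known as a heme and choline transporter, fell by 0.94. Of the iron regulatory proteins, Aco1 fell by 0.38 (adjusted p = 0.0017) and Ireb2 gave -0.19 without passing (adjusted p = 0.105).

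Of 12 further zinc genes 3 rose and 1 fell in the uterus, 33.3% against 26.7% of all genes. Alkaline phosphatase Alpl, a zinc enzyme, rose by 2.03 (SE 0.30, adjusted p = 0.000358). It read 9.10, 8.67 and 9.06 in E2 uterus, against 6.51, 6.46 and 7.77 in oil uterus. The zinc enzymes of carbon dioxide hydration moved apart. Car2 rose by 1.37 and Car12 by 1.03 (adjusted p = 0.043, with overlapping arrays), and Car4 fell by 1.92. Of 24 further copper genes 7 rose and 2 fell (37.5%). Aoc1, a copper amine oxidase that degrades polyamines and histamine, read 11.47, 10.82 and 11.55 in E2 uterus, against 5.77, 5.59 and 5.66 in oil uterus (5.61, SE 0.16, adjusted p = 4.59e-09), and 10.48, 10.53 and 10.64 in E2 oviduct and 10.57, 10.38 and 10.68 in oil oviduct. Here too the E2 uterus arrays read above the oviductal ones and the oil uterus arrays below them. The monooxygenase homologue Moxd1 rose by 1.06, the amine oxidase Aoc3 by 0.56, and the collagen cross-linking Loxl1 fell by 0.75. Sco2 and Loxl2 were not analysed here.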

How the data were processed

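RNA of 12 samples was measured on single-channel Affymetrix arrays. The deposited values are intensities on a linear scale made by the authors with RMA, per the labels; no version is given. Array maxima of 9101.6 to 9950.1 showed that they were not log2 values, as the chosen tests had assumed, so they were log2 transformed here with a pseudocount of 0. Of 35556 probe sets, 21789 had a single gene symbol, 1621 had several and 12146 were unlisted; 21698 matched GRCm38.p6 genes by identifier. The probe set with the highest mean stood for each of 19938 genes, with no filter.

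The 4 group means were fitted on all 12 arrays by limma (version 3.58.1, R 4.3.3; lmFit and eBayes, two-sided tests). P-values were adjusted by Benjamini-Hochberg across the 19938 genes, with 0.05 as threshold. The fit was tested on simulated data with independent noise for each gene, which lack displaced arrays such as those of oil replicate 3. Precision is limited by 3 arrays per group, for which an exact test cannot go below p = 0.1. The labels call the replicates biological but do not say which samples share a mouse. Members, lists and the rule for named genes (all array values for members past the test, up to 10 per direction for E2 and 8 per sign for tissue, and for a fixed list of core genes) were chosen with earlier results of these data known. Alternatives are given in the closing section.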

Additional observations from a re-analysis of the deposited data

Results flagged for a closer look

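The E2 effect differed between oviduct and uterus, by the test of that difference, for 9 members. As oviductal effect minus uterine effect in log2 units, the values were -3.13 for Slc40a1, -2.66 for Steap1, -2.03 for Steap2, -1.34 for Cp and -1.33 for Slc39a2, and 1.5 for Steap4, 0.66 for Slc39a10, 0.47 for Slc30a4 and 0.35 for Slc39a7. For Steap2 the mean of both probe sets gave -0.96. In the epithelial marker list 9 of 10 genes passed the same test, all negative, with a median of -1.17. Of the macrophage markers 1 of 10 and of the neutrophil markers 1 of 8 passed, both negative, shares near the 11.5% of all genes. Positive were 4 of 8 endothelial markers (median of the list 0.505), 3 of 6 stromal ones (0.32) and 2 of the 4 Hox genes of the uterus (0.66). The part of these lists in the differences was not tested.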

How the results depend on the processing

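The 20 uterine calls and the 9 for the difference of effects kept their direction under each alternative tried. Of the uterine calls 15 passed under all that held them (the filter on dim genes leaves out Slc39a12), and 5 (Fth1, Mt1, Slc39a6, Slc39a7 and Slc39a8) missed the threshold under at least 1. The number of members called in the uterus was 20, and 15 to 20 with single arrays left out, 25 with array weights, 20 with dim genes left out and 17 with the uterine arrays alone. The lowest count, 15, came without E2 uterus replicate 2. In the oviduct 1 member, Mt2, was called with dim genes left out, with an intensity trend and with array weights, against 0 otherwise, and 0 with any single array left out. The difference of effects gave 9, 7 to 8 with single arrays left out, 10 with dim genes left out and 11 with array weights. Oviduct against uterus gave 21 in E2 mice (14 to 23 with single arrays left out, 30 with array weights) and 23 in oil mice (21 to 23). Leaving out both arrays of oil replicate 3, an alternative chosen after seeing the data, gave 18 in the uterus, 0 in the oviduct, 8 for the difference, 23 in E2 mice and 22 in oil mice. The mean of all probe sets turned Steap2 in oviduct against uterus of oil mice to -0.13, since the dimmer probe set is then averaged in, and its difference of effects to -0.96. With the replicate number as a block, 18 members were called in the uterus, 0 in the oviduct, 8 for the difference, 20 in E2 mice and 23 in oil mice, and Fth1 and Slc39a8 missed the threshold in the uterus. Deviations of equally numbered samples correlated at -0.20 to 0.19 between treatments and at 0.0045 to 0.26 between tissues. Since not every one was over 0.1, the numbers were not used as pairs, and whether tissues of equal number share a mouse is not known. The block joins equal numbers of both treatments, so it does not stand for a mouse. A pairing of uterus with oviduct within each treatment was not fitted, and the tissue and difference tests take no account of one. Heph passed in the uterus under 6 alternatives. Slc30a1, Slc30a10, Slc31a2 and Tfrc passed there with array weights alone.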
